A study of Mus musculus with 12 samples.

Results

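Type I interferon-stimulated genes are the antiviral genes that cells switch on when interferon alpha or beta binds its receptor, and some of them also when a virus or bacterial product is sensed directly. A list of 35 such genes was followed in mouse peritoneal macrophages given apoA-I, with or without the adaptor MyD88. A probe belonged to the list when its gene name in the array files was a listed gene or an older name of it. By that rule 34 of the 35 genes were found, through 59 of the 41174 probes of the array, and Xaf1 had no matching probe. Of those probes 54 were bright enough to be tested, among 24351 tested probes in all, and each of the 34 genes had at least 1 tested probe.

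Interferon beta and the alpha interferons bind a shared receptor, and the signal leads transcription factors to the interferon-stimulated response element of target promoters. IRF3 and IRF1 bind related elements, so part of the same genes can be transcribed before any interferon is made. In macrophages, some Toll-like receptors, such as TLR4, reach the interferon beta gene through the adaptor TRIF. MyD88 carries most of the other signals of Toll-like receptors, and from some of them it also signals to interferon genes.

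The tested cells were thioglycollate-elicited peritoneal macrophages from female mice aged 10 weeks, harvested 96 h after the injection. Before treatment, all cells were loaded overnight with cholesterol at 10 µg/ml and were kept in medium with polymyxin B, which binds lipopolysaccharide, at 25 µg/ml. The 4 groups, with 3 one-colour arrays each, were MyD88-null (MyD88-/-) cells with apoA-I at 10 µg/ml for 2 h, MyD88-null control cells, C57BL/6 (C57) cells with the same apoA-I treatment, and C57 control cells. ApoA-I is the main protein of high-density lipoprotein. The design addresses what apoA-I does to macrophage transcripts and whether MyD88 is needed for it. How many mice gave the cells of a sample is not stated in the labels used here, and each test weighs a difference only against the scatter among these samples, part of which may be technical.

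The upstream sequences of 8 member genes are shown because they carry, or lack, the core of the interferon-stimulated response element. They come from genes that did and did not pass the test for a change with apoA-I. The sequences are from RefSeq, build GRCm38.p6, and cover the 160 bases before the annotated start of transcription. The motif searched was GAAA, then 2 bases of any kind, then GAAA, on both strands (TTTC, 2 bases, TTTC where it lies on the other strand), with overlapping matches allowed, and its matches are in capitals. In the 250 bases before the start, 978 of 32851 RefSeq promoters held it, or 2.98%, and counted by gene 936 of 27025 did, or 3.46%. A promoter was in the table for 26 of the 35 members, and 10 of these 26 held the motif. It was found in 4 of the 8 member genes that rose with apoA-I in either genotype and had a promoter in the table, and in 6 of the 17 measured ones that did not pass. These 6 include Ifit3 and Ifi203, which did not pass by the probe counted but passed in MyD88-null cells by other probes. The 17 are therefore not all genes without a response.

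In genes that rose, Ifit1, at chr19:34640729-34640888 (plus strand), had 2 matches, Isg15, at chr4:156200819-156200978 (minus strand), had 3 that overlap, and Rsad2, at chr12:26456453-26456612 (minus strand), and Ifi205, at chr1:174031756-174031915 (minus strand), had 1 each.
Ifit1: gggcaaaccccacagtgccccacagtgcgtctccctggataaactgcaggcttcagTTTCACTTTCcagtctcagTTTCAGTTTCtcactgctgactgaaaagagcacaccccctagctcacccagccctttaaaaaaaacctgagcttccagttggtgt
Isg15: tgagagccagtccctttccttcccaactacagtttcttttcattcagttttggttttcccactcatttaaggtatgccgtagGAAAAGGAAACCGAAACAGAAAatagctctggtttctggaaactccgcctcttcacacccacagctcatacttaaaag
Rsad2: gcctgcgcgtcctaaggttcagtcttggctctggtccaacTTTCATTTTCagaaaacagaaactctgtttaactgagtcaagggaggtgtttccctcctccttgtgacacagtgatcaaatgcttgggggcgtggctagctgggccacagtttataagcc
Ifi205: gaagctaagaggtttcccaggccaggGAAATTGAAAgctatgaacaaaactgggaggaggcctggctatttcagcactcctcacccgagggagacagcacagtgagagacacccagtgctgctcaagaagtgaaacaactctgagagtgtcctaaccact

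In genes that did not pass in either genotype, Oas1a, at chr5:120907526-120907685 (minus strand), and Bst2, at chr8:71537473-71537632 (minus strand), had 2 overlapping matches each.
Oas1a: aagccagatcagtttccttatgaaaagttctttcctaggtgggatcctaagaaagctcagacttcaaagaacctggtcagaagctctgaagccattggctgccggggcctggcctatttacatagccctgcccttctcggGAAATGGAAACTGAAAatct
Bst2: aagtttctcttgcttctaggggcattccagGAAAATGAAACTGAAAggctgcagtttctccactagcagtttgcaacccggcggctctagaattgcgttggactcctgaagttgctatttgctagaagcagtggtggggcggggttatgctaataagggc

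Ifih1, at chr2:62646256-62646415 (minus strand), and Oasl1, at chr5:114923080-114923239 (plus strand), rose in both genotypes and had no match to these letters in this window.
Ifih1: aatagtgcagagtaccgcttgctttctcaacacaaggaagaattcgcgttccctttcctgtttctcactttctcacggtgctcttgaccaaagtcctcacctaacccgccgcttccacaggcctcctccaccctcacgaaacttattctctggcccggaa
Oasl1: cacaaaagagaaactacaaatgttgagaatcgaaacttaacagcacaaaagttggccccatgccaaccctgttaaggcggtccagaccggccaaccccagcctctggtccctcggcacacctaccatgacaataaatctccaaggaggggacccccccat

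Levels are given as log2 of a probe's processed intensity over the 75th percentile of its array, so that 0 is a level equal to that percentile, and values of 3 arrays are in the order of replicates 1, 2 and 3. The share of probes well above background was 57.56% to 67.08% on 11 arrays and 73.64% on MyD88-null apoA-I replicate 1, which also had the lowest 75th percentile, 199.5 intensity units against 325.1 to 1408 on the other 11. For MyD88-null apoA-I replicate 2 and C57 control replicate 2 the free-text descriptions disagree with the titles about whether apoA-I was given, and the titles were followed. Myd88, the deleted gene, stood at 2.75, 3.25 and 2.43 in apoA-I-treated MyD88-null cells and at 1.87, 2.1 and 1.4 in MyD88-null controls, against 4.17, 4.29 and 3.41 in apoA-I-treated C57 cells and 3.48, 3.49 and 2.96 in C57 controls. The MyD88-null arrays were lower at each treatment with no overlap, by 1.15 ± 0.323 with apoA-I and by 1.52 ± 0.323 in controls (log2 difference ± SE), which did not pass in limma's test (adjusted p = 0.999 and 0.268) and passed with the replicate number as a block (adjusted p = 0.0315 and 0.00524). With apoA-I over control, Myd88 changed by 1.02 in MyD88-null cells only with the block (adjusted p = 0.00775, without it 0.308). Whether the Myd88 probe lies in the deleted part of the gene is not given in the labels.

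With apoA-I, 10 of the 34 interferon-stimulated genes rose in MyD88-null macrophages and 7 in C57 macrophages, while 24 and 27 did not pass the test. None passed as lower, against 0.0205% of all tested probes in MyD88-null cells and 0.00821% in C57 cells. The genes that passed limma's test in MyD88-null cells (adjusted p under 0.05 over all tested probes, each gene by its brightest probe) were Ifit1, Mx2, Isg15, Oasl1, Rsad2, Ifit2, Ifih1, Ifi205, Cmpk2 and Parp14. In C57 cells those that passed were all among them: Ifit1, Isg15, Mx2, Oasl1, Rsad2, Ifi205 and Ifih1. Of all tested probes, 1.08% passed as higher with apoA-I in MyD88-null cells and 0.752% in C57 cells. The member genes' median log2 change was 1.18 in MyD88-null cells (range -0.31 to 6.58) against 0.03 over all probes, and 0.67 in C57 cells (range -0.3 to 4.49) against 0.01 over all probes. In bulk RNA, fewer responding cells and less RNA per cell cannot be told apart. The 2 responses are given side by side from 1 fit with a shared estimate of the spread.

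Direction was shared by most members, many of which did not pass the test. The counts that follow are over all 34 genes, those that passed included. The change was positive in 33 of 34 genes in MyD88-null cells, against 53.2% of all probes, and in 28 of 34 in C57 cells, against 50.7%. It was positive under every one of the 3 replicate numbers in 26 genes in MyD88-null cells, where 26.8% of all probes were, and in 20 genes in C57 cells, where 25.1% were. It was negative under every number in 0 genes in MyD88-null cells, against 21.9% of all probes, and in 3 genes in C57 cells, against 22.6%. The 3 apoA-I arrays lay above all 3 controls for 20 genes in MyD88-null cells, where 6.07% of all probes did so, and for 16 genes in C57 cells, where 7.27% did. By its brightest probe, no member gene had all its apoA-I arrays below its controls, against 5.27% of all probes in MyD88-null cells and 5.95% in C57 cells. With the replicate number as a block, 15 members passed in MyD88-null cells, where 3.25% of all probes passed as higher, and 10 in C57 cells, where 2.38% did.

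In the fits that left out 1 array, the count ran from 7 to 13 in MyD88-null cells and from 4 to 8 in C57 cells. The C57 count rested on few arrays, being 4 without C57 apoA-I replicate 2 and 4 without C57 control replicate 2. Without MyD88-null apoA-I replicate 1 the counts were 12 in MyD88-null and 8 in C57 cells. Without both samples whose descriptions disagree with their titles, 7 genes passed in MyD88-null cells and 3 in C57 cells, and with the treatment taken from the descriptions 0 passed in either genotype. By level, MyD88-null apoA-I replicate 2 had the highest member median of the 12 arrays, 2.16, and C57 control replicate 2 one of the lowest, 0.07. These levels are the outcome under study, so they cannot settle which treatment label is right.

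**Figure D1:**
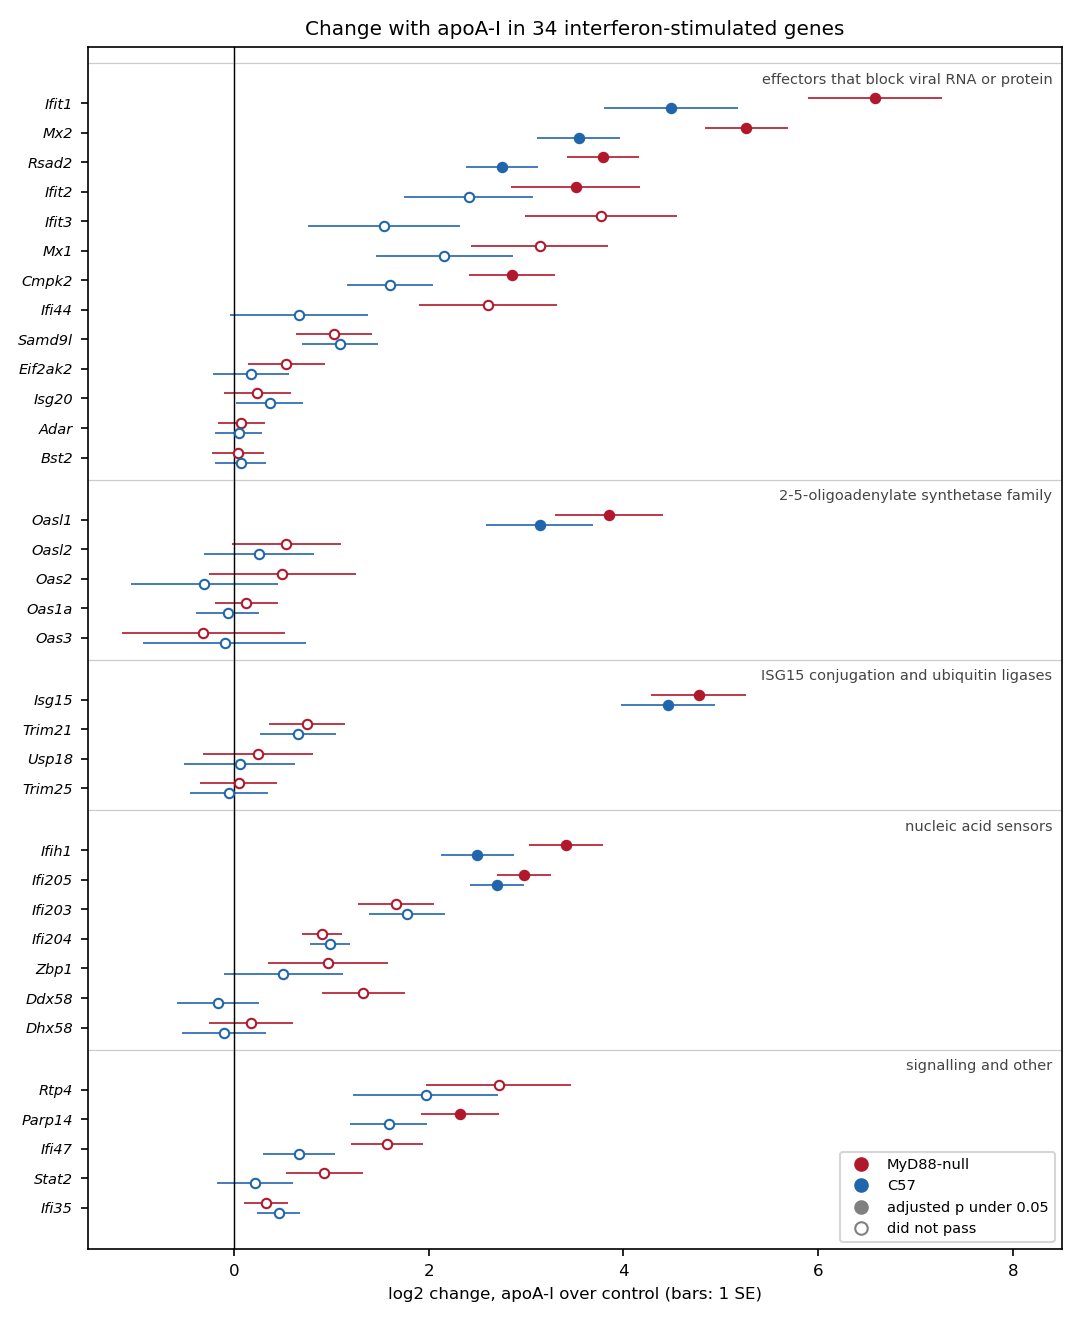
Log2 change with apoA-I over control (x axis) of 34 interferon-stimulated genes in MyD88-null cells (red) and C57 cells (blue), grouped by role, with bars of 1 SE from the fit and filled points where the adjusted p was under 0.05. The changes run up to 6.58 in MyD88-null cells and 4.49 in C57 cells, both for Ifit1, while Adar, Bst2, Trim25 and 4 of the 5 genes of the oligoadenylate synthetase family lie between -0.31 and 0.54.

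The effectors that act on viral RNA or protein held the largest change of each genotype. Of 13 genes, 5 rose in MyD88-null cells and 3 in C57 cells, with group medians of 2.86 and 1.54 on the log2 scale. Ifit1, which binds viral RNA that lacks the cap modification of host messages, had levels of 2.97, 3.4 and 3.11 in apoA-I-treated MyD88-null cells, against -4.13, -4.51 and -1.63 in MyD88-null controls. In C57 cells its levels were 1.71, 1.94 and 2.21 with apoA-I, against -1.8, -3.62 and -2.2 in controls. Treated arrays lay far above all controls, and MyD88-null control replicate 3 was the highest control. The change was 95.8-fold in MyD88-null cells (log2 6.58 ± 0.686 SE, adjusted p = 0.000761) and 22.5-fold in C57 cells (log2 4.49 ± 0.686 SE, adjusted p = 0.0132). The C57 call was lost without C57 apoA-I replicate 1, 2 or 3 or C57 control replicate 2, with adjusted p up to 0.0759. Its probe lies at chr19:34350610-34350669 in the array's annotation (build mm7), in the same stretch of the chromosome as those of Ifit2 and Ifit3.

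Mx2, a gene of the dynamin-like GTPase family, was at 2.13, 2.15 and 1.71 in apoA-I-treated MyD88-null cells and at -3.56, -3.9 and -2.35 in MyD88-null controls. Whether working Mx2 protein was made was not measured. In C57 cells Mx2 was at 0.85, 0.4 and 0.43 with apoA-I and at -2.23, -3.4 and -3.3 in controls. Both genotypes were separated without overlap, by 38.4-fold in MyD88-null cells (adjusted p = 0.000174) and 11.6-fold in C57 cells (adjusted p = 0.00268), and neither call was lost when 1 array was left out. Its probe is at chr16:97944478-97944537 (mm7). Rsad2, or viperin, which makes a chain-terminating nucleotide, had 4.82, 5.57 and 5.25 in apoA-I-treated MyD88-null cells, against 0.99, 0.93 and 2.36 in MyD88-null controls. In C57 cells Rsad2 had 3.69, 3.68 and 3.67 with apoA-I, against 0.84, 0.7 and 1.26 in controls. The C57 replicates lay within 0.02 of each other under apoA-I. The change was 13.9-fold in MyD88-null cells (log2 3.79 ± 0.37 SE, adjusted p = 0.000535) and 6.71-fold in C57 cells (log2 2.75 ± 0.37 SE, adjusted p = 0.00599), by the probe at chr12:24278814-24278873 (mm7). The other 2 Rsad2 probes passed in both genotypes as well.

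Cmpk2, a mitochondrial nucleotide kinase gene that neighbours Rsad2 on chromosome 12, was at 0.43, 2.16 and 0.79 in apoA-I-treated MyD88-null cells and at -1.82, -2.18 and -1.19 in MyD88-null controls. In C57 cells it was at 0.08, 0.04 and -0.53 with apoA-I and at -1.39, -2.07 and -1.75 in controls. No treated array overlapped a control, but only the MyD88-null change passed, at 7.25-fold (log2 2.86 ± 0.441 SE, adjusted p = 0.0101), against 3.02-fold in C57 cells (adjusted p = 0.219). The MyD88-null call was lost without MyD88-null control replicate 1 or 2 (adjusted p = 0.0514 and 0.0555), and the second Cmpk2 probe, at chr12:24309943-24310002, passed in neither genotype (adjusted p = 0.367 and 0.7). The brightest Cmpk2 probe is at chr12:24315074-24315133 (mm7).

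Ifit2, which binds AU-rich RNA, had -0.19, 1.64 and 0.29 in apoA-I-treated MyD88-null cells, against -3.38, -3.48 and -1.93 in MyD88-null controls. In C57 cells Ifit2 had -0.32, -0.79 and -1.56 with apoA-I, against -2.05, -3.76 and -4.09 in controls. The MyD88-null change was 11.4-fold (log2 3.51 ± 0.664 SE, adjusted p = 0.0322) and the C57 change 5.3-fold (log2 2.41 ± 0.664 SE, adjusted p = 0.218). This MyD88-null call was the least secure of the 10, lost without C57 apoA-I or control replicate 2, MyD88-null apoA-I replicate 2 or 3, or MyD88-null control replicate 1 or 2, with adjusted p up to 0.156. The second Ifit2 probe was not well above background on any MyD88-null control array, and it was at least 12.3-fold higher with apoA-I in MyD88-null cells (adjusted p = 0.000571). Its C57 change of 4.28-fold, where 1 of 3 control arrays was above background, did not pass (adjusted p = 0.13). A bound of this kind sets the treated mean against the dimmest signal called above background on each control array. The bound itself was not tested, and an adjusted p beside it is from limma's test on the measured signals, dim controls included. The brightest Ifit2 probe is at chr19:34277058-34277117 and the second at chr19:34275121-34275180 (mm7).

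Ifit3, a partner of Ifit1 and Ifit2, changed 13.7-fold in MyD88-null cells (log2 3.77 ± 0.781 SE), missing the threshold at an adjusted p of 0.0538 and passing with the replicate block (adjusted p = 0.0384). The second Ifit3 probe passed in MyD88-null cells at 16.3-fold (adjusted p = 0.0318), with 1 of 3 MyD88-null control arrays well above background, and did not pass in C57 cells (4.37-fold, adjusted p = 0.447). In C57 cells the change of the brightest Ifit3 probe was 2.91-fold (adjusted p = 0.809), with C57 control replicate 1 at 0.77 above 2 of the treated arrays, at 1.7, 0.38 and 0.08. Mx1, a GTPase that traps viral nucleocapsids, had a change of 8.79-fold in MyD88-null cells (adjusted p = 0.0812, with the block 0.0237) and 4.48-fold in C57 cells (adjusted p = 0.352), and 2 of 3 MyD88-null control arrays were above background. Its second probe was at least 4.72-fold higher in MyD88-null cells (adjusted p = 0.0206). Many laboratory strains, C57BL/6 among them, carry a disabled Mx1 gene. Of the other effectors, Ifi44 had log2 changes of 2.61 and 0.67 and Samd9l 1.03 and 1.09 in MyD88-null and C57 cells, none of which passed. The brightest Ifi44 probe was above background on 3 MyD88-null arrays with apoA-I and 1 MyD88-null control, and on 2 C57 arrays with apoA-I and 1 C57 control.

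At the other end of the effectors stood genes with mean changes near 0. Bst2, or tetherin, which holds budding viruses at the cell surface, had levels of 5.11, 5 and 5.41 in apoA-I-treated MyD88-null cells and 4.89, 5.03 and 5.46 in MyD88-null controls. In C57 cells Bst2 had 5.35, 5.22 and 5.06 with apoA-I and 5.57, 5.18 and 4.67 in controls. These groups overlapped fully, with log2 changes of 0.04 ± 0.266 and 0.07 ± 0.266 (SE) in MyD88-null and C57 cells. The RNA-editing enzyme Adar (log2 changes 0.08 and 0.05), the exonuclease Isg20 (0.24 and 0.37) and the kinase Eif2ak2, or PKR (0.54 and 0.18), did not pass either. A second Adar probe ran the other way, at -0.36 in MyD88-null and -0.51 in C57 cells, with the treated arrays below the controls in both genotypes and adjusted p of 0.737 and 0.614.

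**Figure D2:**
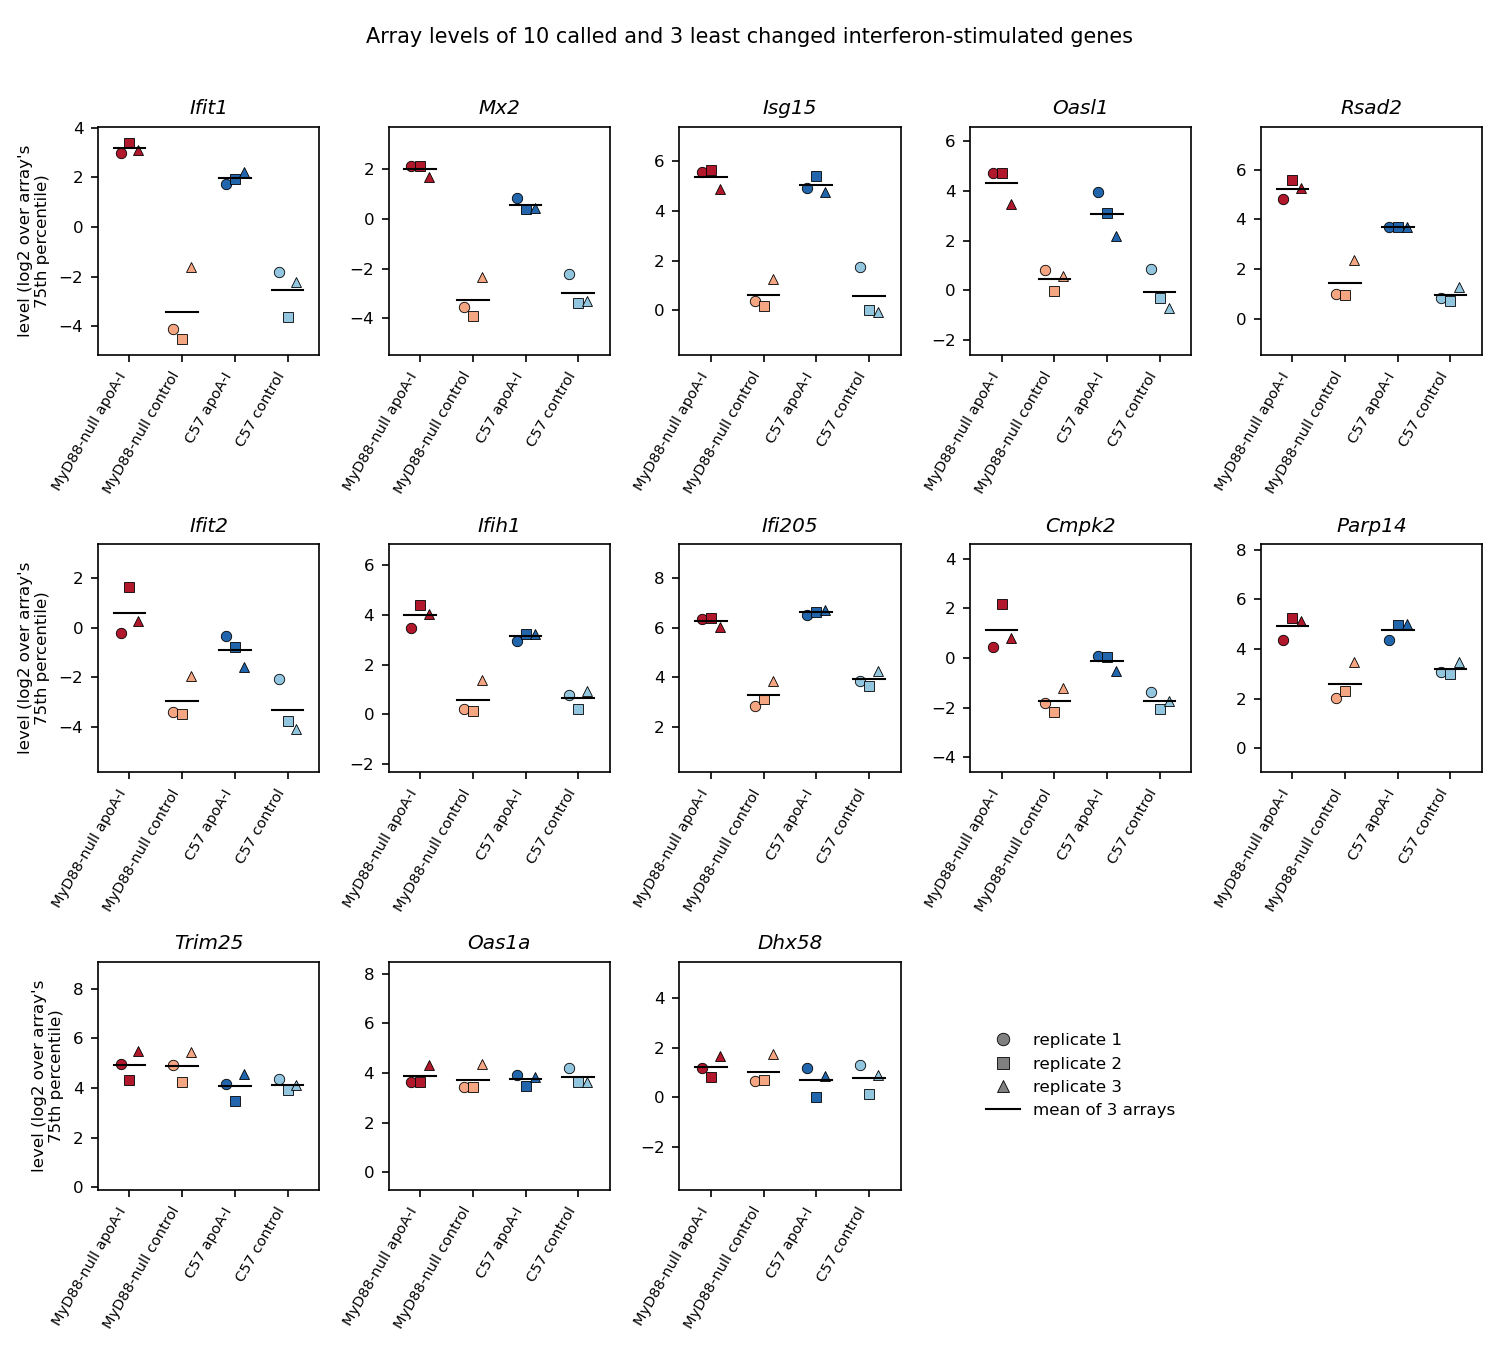
Levels (y axis, log2 of processed intensity over the array's 75th percentile) on each of the 12 arrays for the 10 genes that passed in either genotype and the 3 genes with the smallest absolute mean of the 2 responses, in MyD88-null apoA-I, MyD88-null control, C57 apoA-I and C57 control cells, with a line at each mean of 3 arrays and all panels spanning the same height. Each gene is shown by its brightest probe. The apoA-I arrays lie above the controls in every panel of the first 10 and overlap them in Trim25, Oas1a and Dhx58.

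In the oligoadenylate synthetase family, which makes the 2-5A messenger that activates RNase L, 1 of 5 genes rose in each genotype. It was Oasl1, a family member without synthetase activity that in mice restrains translation of Irf7. Oasl1 had levels of 4.73, 4.72 and 3.48 in apoA-I-treated MyD88-null cells, against 0.83, -0.02 and 0.57 in MyD88-null controls. In C57 cells Oasl1 had 3.95, 3.12 and 2.19 with apoA-I, against 0.88, -0.31 and -0.73 in controls. Neither pair of groups overlapped, and replicate 3 was the lowest treated array in both. The rise was 14.4-fold in MyD88-null cells (log2 3.85 ± 0.552 SE, adjusted p = 0.00647) and 8.81-fold in C57 cells (log2 3.14 ± 0.552 SE, adjusted p = 0.0316). The C57 call was lost without C57 apoA-I replicate 1 or 2, C57 control replicate 2 or 3, or MyD88-null control replicate 2 or 3, with adjusted p up to 0.161, and with the replicate block it was 0.0025. The probe is at chr5:114158380-114158439 (mm7).

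The other 4 genes of the family, which have synthetase activity, did not pass. Oas1a had 3.64, 3.62 and 4.34 in apoA-I-treated MyD88-null cells and 3.42, 3.43 and 4.36 in MyD88-null controls. In C57 cells Oas1a had 3.93, 3.49 and 3.84 with apoA-I and 4.19, 3.65 and 3.62 in controls. Treated and control arrays of Oas1a were interleaved in both genotypes, with log2 changes of 0.13 ± 0.322 and -0.06 ± 0.322 (SE). The MyD88-null changes of Oas2, Oas3 and Oasl2 were 0.5, -0.31 and 0.54 on the log2 scale, and the C57 changes were -0.3, -0.09 and 0.26. Their SE were 0.757, 0.837 and 0.56, wider than most of these changes.

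Isg15, the ubiquitin-like protein attached to other proteins in infected cells, was the member with the second largest C57 change. Its levels were 5.57, 5.66 and 4.89 in apoA-I-treated MyD88-null cells, against 0.39, 0.19 and 1.24 in MyD88-null controls. In C57 cells Isg15 had 4.92, 5.39 and 4.78 with apoA-I, against 1.74, 0.01 and -0.06 in controls. Every treated array was higher than every control, by 27.2-fold on average in MyD88-null cells (log2 4.77 ± 0.483 SE, adjusted p = 0.000649) and 22-fold in C57 cells (log2 4.46 ± 0.483 SE, adjusted p = 0.00157). Neither call was lost when 1 array was left out. The array's annotation places this probe at chr17:44534906-44534965 (mm7), while RefSeq has the Isg15 gene on chromosome 4, so its position is uncertain.

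The enzymes around Isg15 and ubiquitin did not pass. Usp18, which removes Isg15 from proteins and damps the interferon receptor, had log2 changes of 0.25 ± 0.565 and 0.06 ± 0.565 (SE) in MyD88-null and C57 cells. Trim25, the ubiquitin ligase that activates RIG-I, had 4.95, 4.31 and 5.49 in apoA-I-treated MyD88-null cells and 4.91, 4.25 and 5.45 in MyD88-null controls. In C57 cells Trim25 had 4.17, 3.49 and 4.57 with apoA-I and 4.36, 3.9 and 4.13 in controls. Within each MyD88-null replicate number the 2 Trim25 values of this brightest probe differed by 0.07 or less. The second Trim25 probe was higher with apoA-I under every replicate number, with overlapping groups. It was at 2.44, 2.37 and 2.93 against 1.38, 1.59 and 2.72 in MyD88-null cells, and at 1.73, 1.95 and 2.26 against 1.07, 1.59 and 2.25 in C57 cells. Trim21, an antibody receptor and ubiquitin ligase of the cytosol, did not pass in MyD88-null cells (log2 change 0.75, adjusted p = 0.688) or in C57 cells (log2 change 0.66, adjusted p = 0.941).

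Among 7 sensors of foreign nucleic acid, 2 rose in each genotype, Ifih1 and Ifi205. Ifih1, or MDA5, the sensor of long double-stranded RNA, had levels of 3.48, 4.4 and 4.05 in apoA-I-treated MyD88-null cells, against 0.19, 0.11 and 1.38 in MyD88-null controls. In C57 cells Ifih1 had 2.94, 3.24 and 3.22 with apoA-I, against 0.76, 0.19 and 0.95 in controls. The groups were separated in both genotypes. The rise was 10.7-fold in MyD88-null cells (log2 3.41 ± 0.375 SE, adjusted p = 0.000995) and 5.65-fold in C57 cells (log2 2.5 ± 0.375 SE, adjusted p = 0.0119), by the probe at chr2:62528113-62528172 (mm7), and the second Ifih1 probe, well above background on 1 of 3 MyD88-null and 2 of 3 C57 control arrays, passed too (adjusted p = 0.00131 and 0.0316). The C57 call was lost without C57 apoA-I replicate 2 or C57 control replicate 2 (adjusted p = 0.0783 and 0.0733).

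Ifi205, of the interferon-inducible p200 family of DNA-binding proteins, had levels of 6.34, 6.4 and 6.03 in apoA-I-treated MyD88-null cells, against 2.84, 3.13 and 3.85 in MyD88-null controls. In C57 cells Ifi205 had 6.51, 6.64 and 6.71 with apoA-I, against 3.85, 3.67 and 4.25 in controls. The treated arrays were tightly grouped and far above the controls. The rise was 7.9-fold in MyD88-null cells (log2 2.98 ± 0.276 SE, adjusted p = 0.000394) and 6.48-fold in C57 cells (log2 2.7 ± 0.276 SE, adjusted p = 0.00126), by the probe at chr1:173981003-173981062 (mm7). A second Ifi205 probe, at chr1:173992600-173992659, passed at 23.4-fold in MyD88-null cells and 12.6-fold in C57 cells (adjusted p = 0.00119 and 0.0076). The p200 genes Ifi203, Ifi204 and Ifi205 lie in 1 cluster and are close copies, so a probe of one may also catch RNA of another.

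The relatives Ifi203 and Ifi204 changed less by their brightest probes. Ifi203 had changes of 3.18-fold and 3.45-fold in MyD88-null and C57 cells and Ifi204 of 1.88-fold and 1.99-fold, with treated arrays above all controls, and all 4 missed the threshold (adjusted p from 0.0715 to 0.0958) and passed with the replicate block (0.0282 to 0.0482). Other probes of both genes did pass: 1 for Ifi204, at 3.98-fold and 4.94-fold (adjusted p = 0.0126 and 0.00699), and 2 for Ifi203 in MyD88-null cells, at 8.06-fold and 9.42-fold (adjusted p = 0.00487 and 0.0398). The 9.42-fold change is that of a probe well above background on only 1 of 3 MyD88-null control arrays. Zbp1, a sensor of Z-form nucleic acid, did not pass (log2 changes 0.97 and 0.51). Dhx58, or LGP2, the third RIG-I-like helicase, had 1.17, 0.81 and 1.65 in apoA-I-treated MyD88-null cells and 0.66, 0.7 and 1.72 in MyD88-null controls. In C57 cells Dhx58 had 1.16, 0.01 and 0.87 with apoA-I and 1.29, 0.13 and 0.91 in controls. Treated and control values of Dhx58 followed each other by replicate number in C57 cells. Ddx58, or RIG-I itself, had log2 changes of 1.33 ± 0.424 in MyD88-null and -0.16 ± 0.424 in C57 cells (SE), neither of which passed (adjusted p = 0.316 and 1).

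Of the 5 measured genes with signalling and other roles, 1 rose in MyD88-null cells and none in C57 cells, where 2 of the 5 were higher at an unadjusted p under 0.05, against 4.43% of all probes, and 1 passed with the replicate block. Parp14, an ADP-ribosyltransferase, had levels of 4.38, 5.25 and 5.13 in apoA-I-treated MyD88-null cells, against 2.01, 2.31 and 3.49 in MyD88-null controls. In C57 cells Parp14 had 4.35, 4.96 and 5.01 with apoA-I, against 3.09, 2.98 and 3.48 in controls. Treated arrays were above controls in both genotypes. The change was 4.99-fold in MyD88-null cells (log2 2.32 ± 0.398 SE, adjusted p = 0.0195) and 3.01-fold in C57 cells (log2 1.59 ± 0.398 SE, adjusted p = 0.152), and the C57 change passed with the replicate block (adjusted p = 0.0184). The MyD88-null call was lost without MyD88-null apoA-I replicate 2 or 3 or MyD88-null control replicate 1 or 2, with adjusted p up to 0.103. The probe is at chr16:35507119-35507178 (mm7). Another Parp14 probe, well above background on 2 of 3 MyD88-null control arrays, changed 7.3-fold in MyD88-null cells (adjusted p = 0.00173), and the remaining one, at 9.28-fold, missed the threshold (adjusted p = 0.0585).

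Ifi47, an interferon-inducible GTPase, changed 2.97-fold in MyD88-null cells (adjusted p = 0.0969, with the block 0.0415) and 1.59-fold in C57 cells (adjusted p = 0.891). Stat2, a transcription factor of interferon signalling, had log2 changes of 0.93 and 0.22, and Ifi35, a small leucine zipper protein, of 0.33 and 0.46, none of which passed. Rtp4, a chaperone of membrane receptors, had a wide spread between controls. It stood at 3.06, 4.56 and 4.29 in apoA-I-treated MyD88-null cells against 0.23, 0.53 and 2.99 in MyD88-null controls. In C57 cells Rtp4 stood at 3.79, 3.98 and 3.46 with apoA-I against 3, 1.06 and 1.27 in controls. The groups did not overlap, but each genotype had 1 control close to its lowest treated array. The change was 6.58-fold in MyD88-null cells (log2 2.72 ± 0.746 SE, adjusted p = 0.189) and 3.91-fold in C57 cells (log2 1.97 ± 0.746 SE, adjusted p = 0.509). Rtp4 was singled out after its values were seen, as were Bst2 and the further genes named for the spread of the controls.

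The Rtp4 pattern recurred in the median of the list, though not in every gene. In Rsad2 and Ifi205, for example, C57 control replicate 1 was not the highest C57 control. In Adar, MyD88-null control replicate 3 was the lowest MyD88-null control. The median level of the 34 genes on the MyD88-null control arrays was 0.06, 0.06 and 0.89, and on the C57 control arrays 0.84, 0.07 and 0.14, so that MyD88-null control replicate 3 and C57 control replicate 1 stood above the other 4 controls. On the apoA-I arrays the medians were 1.5, 2.16 and 1.69 in MyD88-null cells and 1.41, 0.83 and 1.06 in C57 cells. In Usp18 the 2 high controls were at 1.31 (MyD88-null) and 1.45 (C57), against -0.24 to 0.27 on the other 4, while the treated cells of the same genotype and number were at 1.22 and 1.34. Oas2 behaved likewise, at -0.33 and -0.28 on the 2 high controls against -2.74 to -1.95 on the other 4. The controls that were high came from different replicate numbers in the 2 genotypes. What differed between these control samples was not tested.

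**Figure D3:**
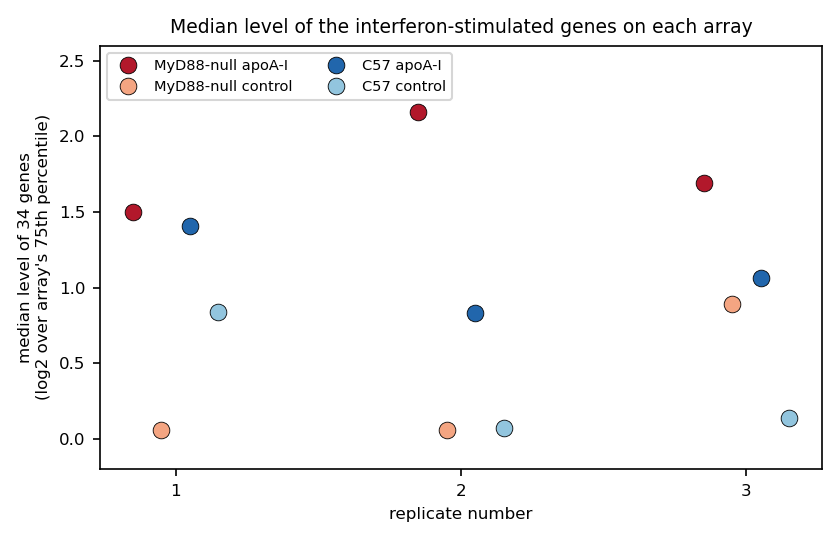
Median level of the 34 interferon-stimulated genes on each array (y axis, log2 over the array's 75th percentile) by replicate number (x axis), with 1 point per array in MyD88-null apoA-I, MyD88-null control, C57 apoA-I and C57 control cells. MyD88-null control replicate 3, at 0.89, and C57 control replicate 1, at 0.84, stand above the other 4 controls, which lie from 0.06 to 0.14.

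Within replicate numbers, the median change with apoA-I was 1.42, 1.67 and 0.67 in MyD88-null cells and 0.46, 1.11 and 0.82 in C57 cells, lowest in each genotype for the number with the high control. All samples of number 3 were scanned on a day of their own, and those of numbers 1 and 2 shared a day, except MyD88-null apoA-I replicate 1 and MyD88-null control replicate 2, which shared a slide and a further day. Within single slides that held both treatments, the median was 1.21 (slide 3) and 0.67 (slide 5) in MyD88-null cells and 0.46 (slide 1) and 1.11 (slide 2) in C57 cells. Within scan days it was 1.72, 1.21 and 0.67 in MyD88-null cells on days 1, 2 and 3, and 0.74 and 0.82 in C57 cells on days 1 and 3. All were positive.

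No member gene's response to apoA-I differed between genotypes in limma's test of the difference, and of all 24351 probes 0% did, with or without the replicate block. At an unadjusted p under 0.05, 2 of the 34 members differed, against 1.09% of all probes: Mx2, whose MyD88-null response was larger by 1.73 ± 0.6 (log2 ± SE), and Ddx58, larger by 1.49 ± 0.599 (adjusted p of 1 for both). The difference was positive, toward a larger response in MyD88-null cells, for 27 of 34 genes, against 53% of all probes, with a median of 0.41 against 0.03 over all probes. It was positive under all 3 replicate numbers for 11 genes, where 20.4% of all probes were, and negative under all 3 for none, where 18.3% were. For Ifit1 it was 2.09 ± 0.97, for Ifit3 2.23 ± 1.11 and for Isg15 0.31 ± 0.683 (SE), so differences of a few fold were not resolved by 3 arrays a group. The test of the difference and both responses share all 12 arrays.

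Between genotypes without apoA-I, none of the 34 genes passed, against 0.0575% of all probes, nor with the replicate block, where 0.501% did, and the median difference, MyD88-null minus C57, was -0.08. Within replicate numbers 1, 2 and 3 that median was -0.78, -0.09 and 0.73, with 2, 14 and 31 of 34 genes higher in MyD88-null cells, so its direction turned with the number that held a high control. On scan day 1 it was -0.5 and on day 3 it was 0.73. At an unadjusted p under 0.05 there were 2 genes, against 3.25% of all probes: Ddx58 (difference -0.96 ± 0.424 SE), the only member whose 3 MyD88-null controls all lay below the C57 controls, where 3.55% of all probes did, and Ifi205 (-0.65 ± 0.276 SE). No member had all its MyD88-null controls above the C57 controls, where 6.43% of all probes did. Ddx58 was at -1.32, -1.45 and -1.12 in MyD88-null controls, against -0.54, -0.59 and 0.09 in C57 controls. The second Ifi205 probe was at -4.06, -2.78 and -4.33 in MyD88-null controls, against -1.39, -1.27 and -1.93 in C57 controls, a difference of -2.2 ± 0.513 (SE) that did not pass (adjusted p = 0.401) but passed with the replicate block (adjusted p = 0.0159).

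With apoA-I, none of the 34 genes passed between genotypes either, against 0.0493% of all probes, nor with the replicate block, where 0.177% did, while the median difference, MyD88-null minus C57, was 0.45 against 0.05 over all probes. At an unadjusted p under 0.05, 7 members were higher in MyD88-null cells, where 1.86% of all probes were: Rsad2, Mx2, Cmpk2, Ifit3, Ifih1, Ifit2 and Oasl1. The 3 MyD88-null arrays lay above the 3 C57 arrays for 7 members, where 2.8% of all probes did: the first 6 of those named and Ifit1. Rsad2 was higher by 1.54 ± 0.37 (SE, adjusted p = 0.697), Mx2 by 1.44 ± 0.424 (adjusted p = 0.999) and Ifit3 by 1.88 ± 0.781 (adjusted p = 0.999). Ifi205 was the member whose MyD88-null arrays all lay below the C57 arrays, where 2.51% of all probes did, by 0.36 ± 0.276 (SE). Within replicate numbers 1, 2 and 3 the median difference was -0.14, 0.62 and 0.54, with 16, 29 and 27 of 34 genes higher in MyD88-null cells, and within scan days 1 and 3 it was 0.55 and 0.54. Number 1 holds the MyD88-null apoA-I array with the outlying share of probes above background, whose part in these values was not tested.

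**Figure D4:**
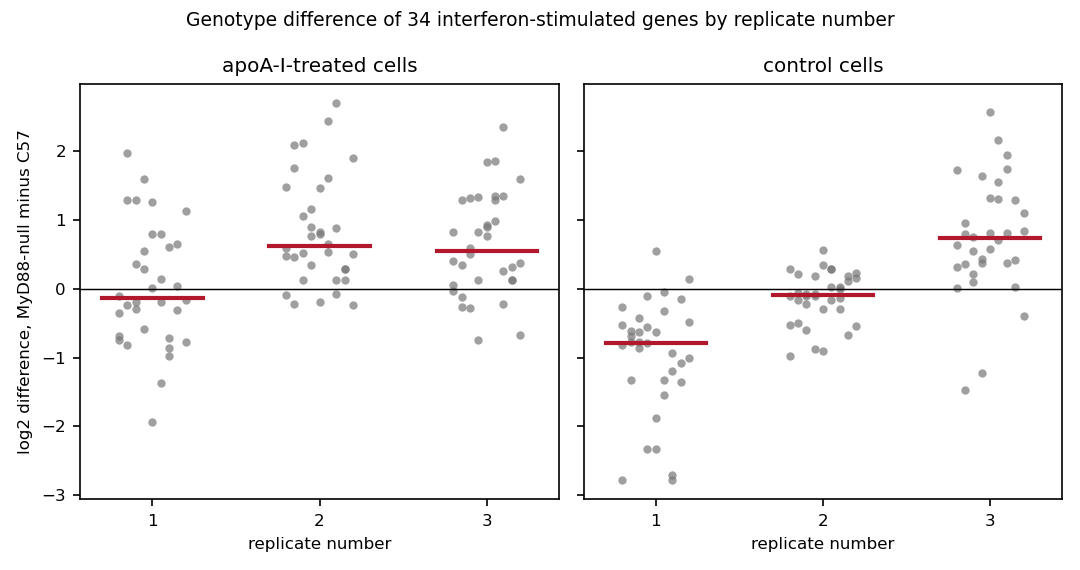
Log2 difference, MyD88-null minus C57 (y axis), of each of 34 interferon-stimulated genes (grey points) within replicate numbers 1, 2 and 3 (x axis), in apoA-I-treated cells (left) and control cells (right), with red lines at the medians. In control cells the median moves through -0.78, -0.09 and 0.73 by replicate number, and in treated cells it is -0.14, 0.62 and 0.54.

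Interferon beta itself, the first ligand of the pathway, was induced. Ifnb1 was not well above background on any control array, and stood at 1.95, 0.24 and -0.24 in apoA-I-treated MyD88-null cells and at 1.39, -0.99 and -1.45 in apoA-I-treated C57 cells. It was at least 48.1-fold higher with apoA-I in MyD88-null cells (adjusted p = 0.00126) and at least 21.3-fold higher in C57 cells (adjusted p = 0.0275). The adjusted p are not of these bounds but of the measured log2 changes, 7.44 ± 0.849 and 4.94 ± 0.849 (SE). Those changes rest on control signals not well above background. Replicate 1 was the highest treated array in both genotypes. Of 9 listed ligands and receptor chains 5 could be tested, and Ifnb1 was the 1 that rose in each genotype. Irf1, a transcription factor that binds the same elements and is itself induced by interferon, was the 1 of 7 genes of receptor signalling that rose. It had 7.66, 7.57 and 6.79 in apoA-I-treated MyD88-null cells, against 3.84, 3.74 and 3.72 in MyD88-null controls, a log2 change of 3.58 ± 0.287 (SE, adjusted p = 0.000174). In C57 cells Irf1 had 7.03, 7.07 and 6.35 with apoA-I, against 4.77, 4.72 and 4.33 in controls, a log2 change of 2.21 ± 0.287 (SE, adjusted p = 0.00455). The Irf1 controls of each genotype lay close together, with SD of 0.069 in MyD88-null and 0.239 in C57 controls.

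Of 7 negative regulators of interferon signalling 3 rose in each genotype, Socs3, Tnfaip3 and Socs1. Socs3, which blocks receptor-bound kinases, had log2 changes of 3.4 ± 0.332 in MyD88-null and 3.37 ± 0.332 in C57 cells (SE, adjusted p = 0.000535 and 0.00115). The ubiquitin-editing enzyme Tnfaip3 had log2 changes of 3.96 and 2.72 (adjusted p = 0.000213 and 0.00306), and Socs1, an inhibitor of JAK kinases, of 1.53 and 1.78 (adjusted p = 0.0316 and 0.0183). These 3 genes are also induced by inflammatory signals other than interferon. None of 11 genes of the signal routes to the interferon genes passed limma's test, against 1.08% of all probes as higher in MyD88-null and 0.752% in C57 cells. With the replicate block 1 rose in MyD88-null cells, Myd88, where 3.25% of all probes did, and 0 in C57 cells, where 2.38% did. Of 33 measured genes on a list of 40 other interferon-induced genes, 3 rose in MyD88-null cells and 2 in C57 cells: the exonuclease Trex1 (log2 changes 3.63 and 3.03, adjusted p = 0.00864 and 0.0358), Slfn2 (3.26 and 2.37, adjusted p = 0.000394 and 0.00421) and, in MyD88-null cells, the cholesterol 25-hydroxylase gene Ch25h (4.57, adjusted p = 0.0021, against 2.66 and adjusted p = 0.0742 in C57 cells, with the block 0.00599). The medians of this list were 0.35 and 0.22, against 1.18 and 0.67 for the members. Over these 5 lists 8 genes passed in MyD88-null cells and 7 in C57 cells. With the replicate block 11 changed in C57 cells, and between genotypes it gave 2 with apoA-I (Myd88 and Socs3) and 4 without it (Myd88, Socs3, Tnfaip3 and Ch25h), all lower in MyD88-null cells, where 0 had passed. The C57 count was 4 without any of C57 apoA-I replicate 1 or 2 or C57 control replicate 2 or 3.

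The 7 macrophage markers were above background on all 12 arrays, with a summed level of 682 to 1260 in apoA-I-treated MyD88-null cells and 617 to 733 in MyD88-null controls, and 685 to 883 in apoA-I-treated C57 cells and 553 to 816 in C57 controls, in multiples of the array's 75th percentile. Of the other marker lists, 5 plasmacytoid dendritic cell genes, the cells known for the most interferon, summed to 2.37 to 3.6 and 2.02 to 2.46 in treated and control MyD88-null cells, and to 2.65 to 3.96 and 1.9 to 4.62 in treated and control C57 cells. The 4 dendritic cell genes summed to 24.8 to 37.2 and 21.8 to 37.6, and to 23.4 to 31.1 and 18.9 to 27.2, in the same order. Sums of linear levels follow the brightest gene of a list, here Lyz2, Cox6a2 and Itgax for these lists in turn. By gene, log2 changes ran from -0.05 to 2.19 in MyD88-null and from 0.13 to 1.14 in C57 cells for dendritic cells. For plasmacytoid dendritic cells they ran from 0.06 to 1.16 and from -0.06 to 1.2. Similar sums therefore do not show steady shares of these cells. No gene of the 11 marker lists passed limma's test in either response. With the replicate block the dendritic cell gene Zbtb46 and the T cell gene Lck rose in MyD88-null cells (adjusted p = 0.023 and 0.0229), where 3.25% of all probes did. In C57 cells no marker gene did, against 2.38% of all probes. The NK cell gene Klrb1c, with a log2 change of 1.08 in MyD88-null cells, did not pass (adjusted p = 0.479, with the block 0.0884). By genotype, the 5 B cell genes summed to 4.14 to 7.4 and 4.5 to 5.22 in treated and control MyD88-null cells, against 7.84 to 8.56 and 7.54 to 8.96 in treated and control C57 cells, and the 4 mast cell genes to 2.15 to 3.78 and 2.11 to 3.95, against 5.54 to 6.1 and 4.19 to 5.3. None of these B cell and mast cell genes passed between genotypes at either treatment, with or without the replicate block. At most 0.501% of all probes passed in those comparisons. The NK cell gene Eomes was above background on no array. The part of other cells in the changes was not tested.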

How the data were processed

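RNA of 12 samples was hybridised to one-colour Agilent arrays. Per the file headers, the authors' processed intensity is each spot's Cy3 signal as background-corrected and spatially detrended by Agilent Feature Extraction (9.5 in the submitters' processing notes; the headers give 9.5.1.1 on some arrays and 9.5.3.1 on others). The deposited mean signal and local background are pixel intensities without correction. The deposited value table holds log10 values of these arrays, a scale read from its match to the processed intensities (correlations 0.9926 to 0.9997). How the authors normalized and centred that table is unknown here (column medians 1.8225 to 1.8676), and it served as an alternative.

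From the intensities, log2 values minus the array's 75th percentile were computed, leaving out outlier spots and averaging the spots of a probe. Probes were kept where any group had all 3 of its arrays well above background. Groups were taken from titles. The number of arrays limits the precision. A linear model with 4 group means was fitted to 24351 probes with limma 3.58.1 in R 4.3.3, with Benjamini-Hochberg adjustment over all probes and a threshold of 0.05. The method was checked on simulated arrays. A gene was counted by its brightest probe. Names came from RefSeq's mouse table (GRCm38.p6), and positions are those of the array files (mm7).

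Same-numbered samples deviated together (r from 0.308 to 0.843 over 18 pairs), and the series design describes 3 experiments of 4 samples, so the replicate numbers were taken to pair the samples. Samples of other numbers and groups had r from -0.798 to 0.515, so the 2 ranges overlap. The numbers are partly tied to slide and scan day, which these correlations cannot separate from pairing. Counts and adjusted p are from the fit without pairing unless the block is named. The numbers were a block in an alternative fit. The list members and other lists were chosen with earlier results of these data known. Per-sample values are given for members that passed in either response, for the 3 with the smallest absolute mean of the 2 responses among those above background on all arrays, and genes of other lists are named where they passed, with Ifnb1 and Myd88. Other alternatives were quantile scaling, normexp background correction with an offset of 50, other filters, 1 probe per gene, slide or scan day as a block, the descriptions' treatment, and leaving out arrays. Leaving out a replicate number was added after seeing the data.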

Additional observations from a re-analysis of the deposited data

Results flagged for a closer look

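Ddx58, which encodes the RNA sensor RIG-I, had changes of opposite sign in the 2 genotypes under every replicate number by its brightest probe. With apoA-I its log2 change was 2.32, 1.25 and 0.41 in MyD88-null cells and -0.05, -0.39 and -0.06 in C57 cells, a difference of the responses of 1.49 ± 0.599 (SE) that did not pass (adjusted p of 1, unadjusted 0.0311, and 0.722 after adjustment with the replicate block). The MyD88-null arrays with apoA-I were at 1, -0.21 and -0.71 and the MyD88-null controls at -1.32, -1.45 and -1.12, while C57 arrays with apoA-I were at -0.59, -0.97 and 0.04 and C57 controls at -0.54, -0.59 and 0.09. The other 2 tested Ddx58 probes gave differences of 0.64 ± 0.799 and 0.12 ± 0.718 (SE), and did not share the pattern. Of all probes, 26.8% were higher under every number in MyD88-null cells, and 22.6% were lower under every number in C57 cells. The share with both was not computed. The C57 changes of -0.05 and -0.06 are small beside the SE of 0.424. The change of 2.32 comes from MyD88-null apoA-I replicate 1, the array with the outlying share of probes above background.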

How the results depend on the processing

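With 3 arrays a group, only large changes could pass, and dim probes give bounds. The counts of member genes passing, 10 in MyD88-null and 7 in C57 cells, stayed within 1.5 times under each change of scaling, background correction, filter, probe choice and fitted groups, and were 15 and 10 under the replicate block and under scan day as a block. They were 16 and 12 with slide as a random block and 0 and 0 with the treatment of the descriptions, and the C57 count was 3 without both samples of conflicting description. The replicate block lost none of these calls, and apart from those given with the results it changed no other call of a member by its brightest probe. Leaving out 1 array gave 7 to 13 genes in MyD88-null cells and 4 to 8 in C57 cells, with medians of 1.11 to 1.47 and 0.62 to 0.93, and of 0.14 to 0.81 for the difference of the responses, 0.19 to 0.6 between genotypes with apoA-I and -0.39 to 0.15 in controls. The counts for the last 3 comparisons were 0 under every alternative run. Alternatives added after seeing the data left out 1 replicate number, with the block over the other 2: the MyD88-null count was then 3 without number 2, the C57 count was 4, 0 and 4 without numbers 1, 2 and 3, and the median difference of the responses was 1.01 without number 3. The median change was 1.72 in MyD88-null cells within scan day 1, and 1.11 in C57 cells within replicate number 2 and within slide 2. Pathway genes passing were 6 to 8 in MyD88-null cells without 1 array, and in C57 cells 11 with the block and 4 to 7 without 1 array. Between genotypes the block gave 2 pathway genes with apoA-I and 4 in controls, where 0 had passed. Over all probes, calls were 269 in MyD88-null and 185 in C57 cells (98.1% and 98.9% higher), and the block gave 930 and 805 (85.1% and 71.9% higher). In the same order, slide as a random block gave 890 and 1000 (83.9% and 64.4% higher), scan day 506 and 459, no filter on dim probes 178 and 111, only the 2 groups 103 and 106, leaving out the samples of conflicting description 112 and 78, the descriptions' treatment 0 and 0, and leaving out 1 array 145 to 267 and 83 to 209. Between genotypes in controls, 14 probes passed, against 122 with the block, 76 with slide, 26 with scan day, 1 with only the 2 groups, 2 either with the descriptions' treatment or without both samples, and 3 to 17 without 1 array. Quantile scaling moved the all-probe median in MyD88-null cells to -0.09, against 0.03 without it, and the member calls were the same 10. No value of a called gene changed sign in the alternatives run. The causes of these differences were not tested.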
